A study of Homo sapiens with 8 samples.

Results

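The promoters of 10 genes of meiosis and germ cell development were followed by their DNA methylation: BRDT, SYCP1, HORMAD1, BOLL, DAZL, STK31, SYCE1, SYCP3, TEX14 and SPO11. A promoter was taken as the CpGs within 2000 bases to either side of 1 start site per gene on genome build hg19, which gave 288 CpGs of the 2975221 listed in any library. The cells were HUES64, an established human embryonic stem cell line, carrying a double knockout of DNMT3A and DNMT3B, per the labels. Reduced representation bisulfite sequencing (RRBS), which reads CpG-rich fragments after bisulfite conversion, was run at passages 6, 7, 8, 11, 13, 17, 27 and 28, with 1 library at each, and all 8 libraries share the double knockout. Whether 1 culture or 1 clone gave all passages is not in the labels, no library of unedited HUES64 cells was analysed here, and CpG reads do not test the knockouts or the pluripotency of the cells. Summed over all CpGs, the library of passage 11 had the fewest reads, 19898423, and that of passage 6 the most, 44599588.

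DNMT3A and DNMT3B set methylation on unmethylated DNA, and DNMT1 copies it to the new strand after replication. Promoters of many germ cell genes are rich in CpGs, are methylated in somatic cells and in cultured pluripotent cells, and are unmethylated in germ cells, where the genes are used. The 10 genes act in homologue pairing, in the breaks that start recombination, in the control of germ cell RNA, and in sperm chromatin and cell division.

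The RefSeq table of promoter sequences, from 250 bases before to 50 bases after an annotated start, held 8 of the 10 genes. Their promoters held 15 to 33 CGs with a median of 26.5, against a median of 14 over all 27305 promoters of that table. The first promoter of each gene was used, and BRDT, BOLL, DAZL and SYCE1 had 2. Each sequence was placed on the hg19 CpG positions of the files by its CGs, and within 20000 bases exactly 1 offset put every listed CpG on a CG, using between 4 CpGs for SPO11 and 16 for BOLL. The following 5 promoters are shown because they span what was found, from a fall (BRDT and STK31) through high methylation at every passage (DAZL and SYCP3) to little methylation (SPO11). Sequences run 5′ to 3′ along the gene, and capitals mark the CGs that were read in every library.
BRDT (GRCh38.p14, chr1:91949121-91949420, plus strand): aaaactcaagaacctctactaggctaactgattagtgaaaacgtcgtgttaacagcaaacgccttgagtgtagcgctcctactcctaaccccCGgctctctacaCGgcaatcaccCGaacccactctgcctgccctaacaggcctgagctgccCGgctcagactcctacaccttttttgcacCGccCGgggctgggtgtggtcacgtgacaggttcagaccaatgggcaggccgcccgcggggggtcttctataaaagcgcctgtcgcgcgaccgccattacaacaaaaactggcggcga
STK31 (GRCh38.p14, chr7:23709969-23710268, plus strand): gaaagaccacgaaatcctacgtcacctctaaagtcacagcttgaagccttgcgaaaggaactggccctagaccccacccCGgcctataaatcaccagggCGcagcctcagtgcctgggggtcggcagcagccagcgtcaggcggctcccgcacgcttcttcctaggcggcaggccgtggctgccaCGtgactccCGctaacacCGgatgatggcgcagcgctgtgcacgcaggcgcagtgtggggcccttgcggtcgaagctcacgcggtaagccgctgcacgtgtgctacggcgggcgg
DAZL (GRCh38.p14, chr3:16605374-16605673, minus strand): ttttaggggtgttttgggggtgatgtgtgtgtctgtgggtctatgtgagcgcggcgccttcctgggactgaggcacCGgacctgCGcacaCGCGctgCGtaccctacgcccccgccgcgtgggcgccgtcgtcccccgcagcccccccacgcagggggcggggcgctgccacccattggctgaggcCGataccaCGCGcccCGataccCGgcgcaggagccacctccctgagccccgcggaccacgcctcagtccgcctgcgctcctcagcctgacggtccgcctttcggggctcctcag
SYCP3 (GRCh38.p14, chr12:101739413-101739712, minus strand): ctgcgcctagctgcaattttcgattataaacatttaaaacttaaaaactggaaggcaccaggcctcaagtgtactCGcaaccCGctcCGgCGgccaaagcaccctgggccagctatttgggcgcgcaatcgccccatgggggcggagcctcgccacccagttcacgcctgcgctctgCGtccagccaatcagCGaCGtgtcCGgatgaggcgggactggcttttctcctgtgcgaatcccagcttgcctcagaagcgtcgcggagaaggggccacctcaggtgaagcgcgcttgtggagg
SPO11 (GRCh38.p14, chr20:57329553-57329852, plus strand): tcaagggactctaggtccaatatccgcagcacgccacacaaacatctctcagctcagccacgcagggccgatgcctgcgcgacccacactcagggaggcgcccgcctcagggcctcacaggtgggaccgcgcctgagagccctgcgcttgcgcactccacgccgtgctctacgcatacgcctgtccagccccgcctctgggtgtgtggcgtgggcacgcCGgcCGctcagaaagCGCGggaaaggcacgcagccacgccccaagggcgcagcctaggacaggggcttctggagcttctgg
The palindrome CACGTG (an E-box, the same on both strands) was found in 2 of the 8 promoters, BRDT and STK31, against 7.43% of all promoters. GCGGGAA or its reverse complement TTCCCGC, a core of E2F sites, was found in 3 of the 8, SYCP1, SYCE1 and SPO11, against 6.56% of all. These are matches of letters in the 300 bases only, and no promoter of the 8 held both motifs. Each motif holds a CG, and the 8 promoters had a median of 26.5 CGs against 14 over all promoters. The shares were not adjusted for CG content, so no enrichment is drawn from them.

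Most of the 10 promoters were highly methylated at passages 6 to 8, where 6 of the 10 averaged 80% or more. At passages 27 and 28, 3 did, DAZL, SYCP1 and HORMAD1. The genes were not tested against each other. Of the 9 promoters with enough reads to test, BRDT and STK31 lost methylation with passage and none gained it. That share, 22.2%, stands beside 26% of all 133872 windows tested across the autosomes (34770 losses) and is close to it. Gains were called in 0.0695% of all windows. The median difference of late (passages 27 and 28) minus early (passages 6 to 8) levels was -2.85 percentage points over the 9 promoters and -6.94 over all tested windows, and nothing particular to the 10 genes is drawn from either. Trends were fitted to the 2 kinds of reads by logistic regression over passage, quasi-binomial and with limma-moderated dispersion, and called at a Benjamini-Hochberg adjusted p under 0.05 over all windows with a fitted change of at least 10 points between passages 6 and 28. The count of promoters with an unadjusted p under 0.05 in this fit was 3 of 9, beside 50920 of all 133872 windows. Among the 9, limma on logit levels called 1 loss and no gain, beside losses in 19.9% of all windows.

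**Figure D1:**
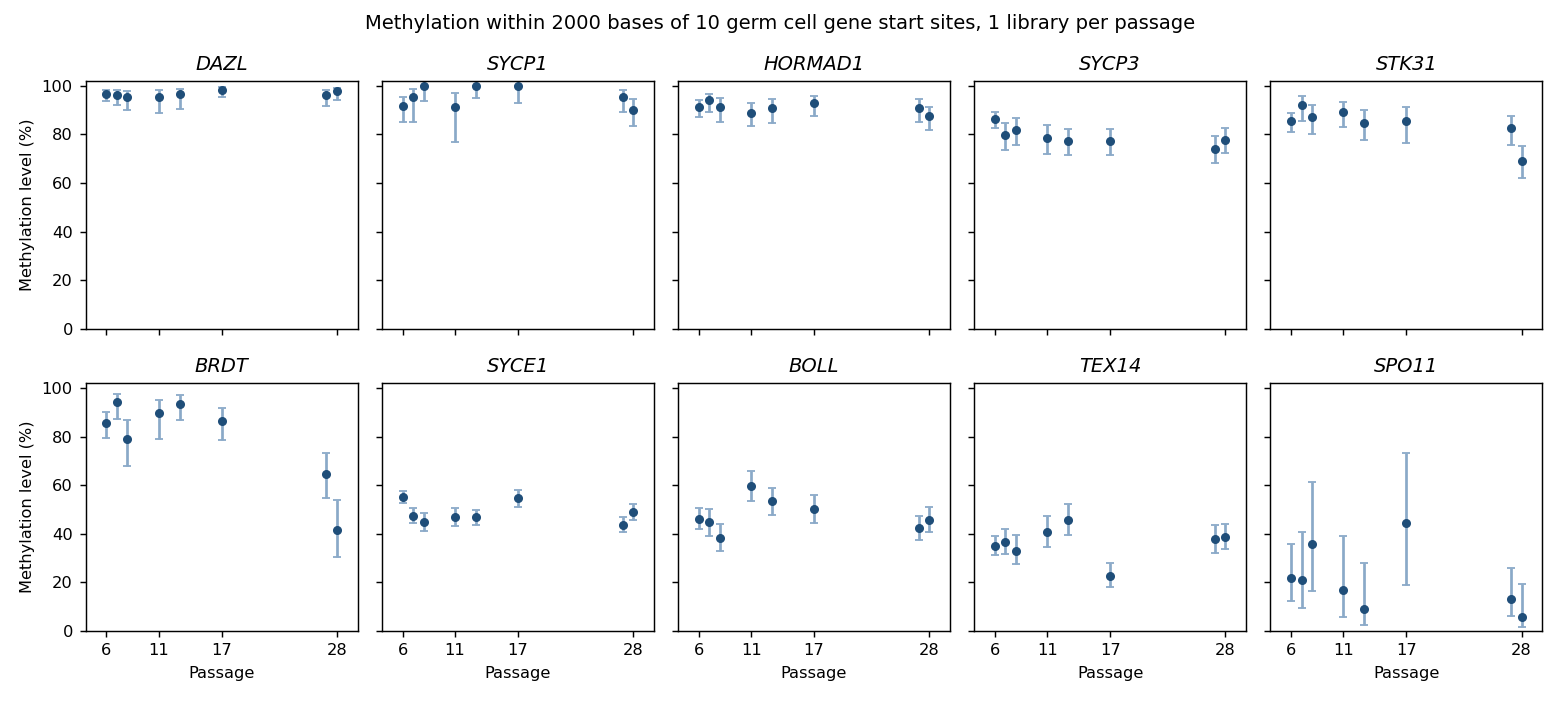
Methylation level (%) against passage for each promoter, ordered by its mean at passages 27 and 28; points are single libraries and bars are 95% Wilson intervals of the summed reads, too narrow where CpGs share reads. DAZL stays between 95.3 and 98.4%, BRDT drops to 41.5% at passage 28, and the SPO11 intervals are wide.

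BRDT showed the largest fall among the 10. It encodes a bromodomain protein of the testis that reads acetylated histones in developing sperm. The level of its window was 85.7, 94.3 and 78.9% in the libraries of passages 6, 7 and 8. It was 89.5, 93.5 and 86.4% in those of passages 11, 13 and 17, and 64.6 and 41.5% in those of passages 27 and 28. Both late libraries lay below each of the other 6. The late mean was 53.1%, against 86.3% ± 7.74 at passages 6 to 8 (SD, n = 3 libraries), a difference of -33.2 points. The fitted change was -32.7 points, with a slope of -0.0896 ± 0.0198 per passage on the logit scale (SE, n = 8; adjusted p = 0.00144, limma-moderated fit). Of windows that also started at 80% or more, 21.2% lost methylation, and in 3.42% the late level lay further below the early one than in BRDT. Over passages 6 to 17 alone the fitted change of BRDT was 1.63 points (adjusted p = 0.925, limma-moderated fit), so the call rests on the libraries of passages 27 and 28. Without passage 28 it was -21.3 points (adjusted p = 0.0473, same fit).

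Within the BRDT window the lower levels lay before the start site. The 7 CpGs from -158 to -46 (chromosome 1, 92414770 to 92414882, hg19; positions are bases from the start site, negative before it) stood at 81.0, 95.9 and 86.8% in passages 6, 7 and 8 and at 83.3, 93.5 and 76.2% in passages 11, 13 and 17. They stood at 47.3% in passage 27 and 15.0% in passage 28. Both late values lay below the other 6, and passage 28 lay below passage 27. The 6 CpGs from 184 to 269 had 86.4% at passage 27 and 84.0% at passage 28, inside the range of the other 6 libraries, 69.7 to 93.5%. With reads pooled over the late and over the early libraries, the CG at base 116 of the sequence above had 15.4% late and 91.7% early, and that at base 154 had 16.7% late and 73.3% early. The CG at base 205, inside CACGTG, had 63.6% of 11 reads late and 88.9% of 9 reads early. These stretches were set after their values were seen and were not tested. Neighbouring CpGs share reads: the 40 reads summed over the 7 CpGs at passage 28 came from at most 11 reads at any 1 CpG.

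STK31 encodes a kinase-like protein of germ cells with a Tudor domain. Its window stood at 85.4, 92.1 and 87.2% in the libraries of passages 6, 7 and 8. The values were 89.2, 84.8 and 85.4% for passages 11, 13 and 17, then 82.6 and 69.1% for passages 27 and 28. Passage 28 was the lowest, and passage 27 lay just under the other 6. The late mean was 75.8%, against 88.2% ± 3.49 early (SD, n = 3), a difference of -12.4 points. The fitted change was -13 points, with a slope of -0.0412 ± 0.0117 per passage on the logit scale (SE, n = 8; adjusted p = 0.0117, limma-moderated fit), and 25.8% of windows of the same starting class lay further below their early level. The library of passage 28 decided the call, since without it the fitted change was -4.83 points (adjusted p = 0.488, same fit).

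The lower STK31 levels at the late passages lay at the start site. The 5 CpGs from -119 to 5 (chromosome 7, 23749667 to 23749791, hg19) had 76.1% at passage 27 and 49.4% at passage 28, against 89.2% ± 5.09 at passages 6 to 8 (SD, n = 3). The passage 27 value lay close to the 77.1% of passage 13, and the passage 28 value lay below all others. The 7 CpGs from 1021 to 1194, inside the gene, had 86.7% and 83.3%, against 87.0% ± 5.15 early (SD, n = 3). All 5 CGs printed in capitals were lower in the pooled late reads: 34.5% late against 75% early at base 80, 58.6% against 91.5% at base 100, and 51.6% against 89.1% at base 186. That last CG lies in CACGTG. The CG at base 195 had 83.9% late against 97.9% early, and that at base 204 had 75% late against 98.0% early. At the CpG at 5, the only one of the window with 10 or more reads throughout, the level was 88.2% at passage 27 and 60% at passage 28, against 96.4% in passage 6 and 100% in passages 7 and 8. It was 80% in passage 11 and 100% in passages 13 and 17, so passage 27 was not below all earlier libraries there. With windows of 500 bases to either side of the start site, the fitted change of STK31 was -28 points (adjusted p = 0.00168, limma-moderated fit).

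**Figure D2:**
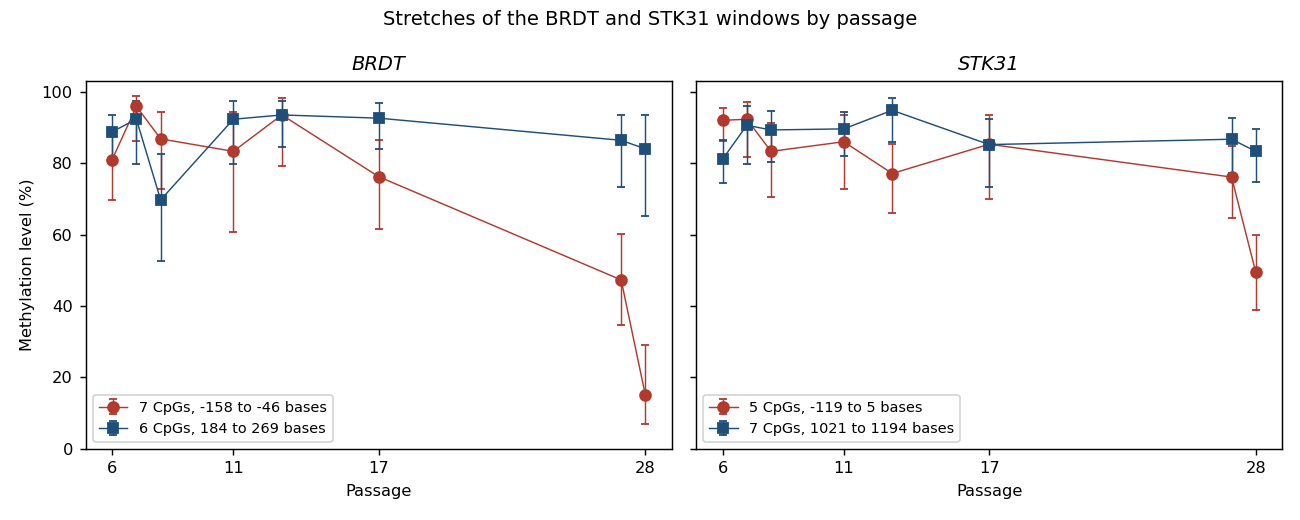
Methylation level (%) against passage in 2 stretches each of the BRDT and STK31 windows; points are single libraries, bars are 95% Wilson intervals, and legends give the number of CpGs and their positions from the start site. At passage 28 the CpGs before or at the start are at 15.0% (BRDT) and 49.4% (STK31), while those further into the gene are at 84.0% and 83.3%.

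DAZL and BOLL encode RNA-binding proteins of one family that control translation in germ cells. DAZL had the highest mean level of the 10, late and early. Its window read 96.8, 96.3 and 95.3% for passages 6, 7 and 8, 95.4, 96.6 and 98.4% for passages 11, 13 and 17, and 96.1 and 97.9% for passages 27 and 28. No passage stood apart. The late mean was 97.0%, against 96.2% ± 0.763 early (SD, n = 3), and the fitted change of 1.01 points was not called (adjusted p = 0.682, limma-moderated fit). Of windows starting at 80% or more, 89.9% had a lower difference of late minus early, and 13.9% of them averaged 90% or more late. The DAZL promoter is dense in CGs (33 in the 300 bases shown), and each of the 10 in capitals had 90.5% or more late and 91.8% or more early. All 17 DAZL CpGs with at least 5 pooled reads both late and early were at 80% or more late, and 11 of them were at 100%.

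BOLL lay at an intermediate level. Its window had 42.2% at passage 27 and 45.7% at passage 28, against 43.0% ± 4.12 at passages 6 to 8 (SD, n = 3), with 59.7, 53.3 and 50.2% for passages 11, 13 and 17. The middle passages were thus the highest for the whole window, and late and early libraries overlapped. The fitted change was -1.69 points (adjusted p = 0.812, limma-moderated fit), while 55.3% of windows starting between 40 and 60% lost methylation and 92.6% had a lower difference of late minus early. The BOLL level was a mean of unlike parts. The 39 CpGs from -283 to 606 had 38.8% late and 34.8% ± 4.26 early (SD, n = 3), and the 4 CpGs from 1228 to 1278 had 100% late and 96.4% ± 3.32 early. Between them, the pair at 768 and 774 had 5 of 12 reads methylated late and 62 of 67 early. Such close CpGs share reads, and neither of the pair had more than 6 reads late or 35 early. The middle passages were not higher throughout: from -283 to 606, passage 17 had 40.4%, below the 40.9% of passage 28. Passage 11 had 76.1% from -283 to 218 and 25.2% from 434 to 606, and passage 13 had 42.6% and 58.9%. At passage 11 the deepest CpG had 9 reads in the former stretch and 13 in the latter. RefSeq gives 2 starts for BOLL, 556 and 1443 bases into the gene from the start site used here. The promoter sequence of the second holds the 4 CpGs from 1228 to 1278.

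SYCP1, SYCP3 and SYCE1 build the synaptonemal complex that joins paired chromosomes in meiosis, SYCP1 as its cross-filament, SYCP3 in its side elements and SYCE1 in its centre. HORMAD1 marks chromosome axes that are not yet joined. SYCP1 had 95.6% at passage 27 and 90.2% at passage 28, against 91.6, 95.6 and 100% in passages 6, 7 and 8. Passages 11, 13 and 17 had 91.2, 100 and 100%. The late values lay within the range of the early ones except for passage 28, and the fitted change was -2.13 points (adjusted p = 0.68, limma-moderated fit). This rests on 8 CpGs and 34 to 119 reads per library. The CpGs at -386 and -376 had 1 unmethylated read each, at passage 6 alone, and other libraries read 6 CpGs. The 1 CpG at -499 had 14 of 19 reads methylated late and 27 of 27 early.

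HORMAD1 had 90.9% at passage 27 and 87.4% at passage 28, against 92.1% ± 1.58 early (SD, n = 3), and its range over the 8 libraries was 87.4 to 94.0%. The fitted change was -2.68 points (adjusted p = 0.463, limma-moderated fit). The 5 CpGs from 415 to 539 had 83.8% at passage 27 and 88.4% at passage 28, against 97.8% ± 1.93 early (SD, n = 3), and the 15 CpGs from 1715 to 1917 had 89.8% late and 89.1% ± 2.62 early (SD, n = 3). With windows of 1000 bases to either side, which leave out the farther CpGs, HORMAD1 lost methylation by the same rule, at -10.8 points (adjusted p = 0.0299, same fit). At that window size 27.6% of all tested windows lost methylation.

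SYCP3 had 74.2% at passage 27 and 77.9% at passage 28, against 86.2, 79.7 and 81.8% in passages 6, 7 and 8. Both late values lay below the early ones, and the 3 middle libraries lay at 77.4 to 78.5%. The fitted change was -7.65 points and missed both the threshold on p (adjusted p = 0.0772, limma-moderated fit) and the minimum change. The parts of the window differed. The 8 CpGs from -164 to -38, all in capitals in the sequence above, had 121 of 123 reads methylated late and 226 of 227 early. The 6 CpGs from -434 to -366 had 55.0% late and 72.4% ± 7.19 early (SD, n = 3), and the 16 CpGs from 812 to 1786 had 72.2% late and 77.9% ± 1.80 early (SD, n = 3).

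SYCE1 had the most CpGs, 95, and 683 to 1590 reads per library. Its window had 43.7% at passage 27 and 49.0% at passage 28, against 55.3, 47.4 and 44.9% in passages 6, 7 and 8. Passages 11, 13 and 17 had 46.9, 46.7 and 54.6%. The groups overlapped, and the fitted change of -4.02 points was not called (adjusted p = 0.344, limma-moderated fit). The 48 CpGs from -464 to 488 lay at 28.8 to 47.9% over the 8 libraries, with 36.4% late and 32.9% ± 6.27 early (SD, n = 3). The 14 CpGs from -990 to -571 had 39.3% at passage 27 and 32.9% at passage 28, below each of the other 6 libraries, against 60.3% ± 7.43 early (SD, n = 3). On CpGs with 10 or more reads throughout, 42.6% of all tested windows lost methylation. SYCE1 was called as a loss there, at -22.4 points on 7 CpGs (adjusted p = 0.00356, limma-moderated fit). The 4 of them at -583, -603, -605 and -607, which lie close together in the upstream stretch and share reads, had 31.6 to 35.2% late against 66.3 to 71.7% early in pooled reads, the largest differences of the 7. Among the 7 CpGs, the nearest to the start, at 5, had 33.5% late and 32.0% early, the highest, at -1321, had 63.6% late and 83.2% early, and the lowest, at -85, had 20.2% late and 32.7% early.

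SYCE1 also held 5 neighbouring CpGs without a methylated read, shown by the first of its 2 RefSeq promoters. The start of that promoter lies 1081 bases into the gene from the start site used here, and the other start 3789 bases.
SYCE1 (GRCh38.p14, chr10:133568242-133568541, minus strand): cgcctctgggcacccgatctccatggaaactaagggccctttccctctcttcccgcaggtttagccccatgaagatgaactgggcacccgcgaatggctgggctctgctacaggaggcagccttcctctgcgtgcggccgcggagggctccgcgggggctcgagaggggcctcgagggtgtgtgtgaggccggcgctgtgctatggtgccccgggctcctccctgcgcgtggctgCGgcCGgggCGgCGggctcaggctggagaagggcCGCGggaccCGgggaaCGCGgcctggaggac
The 5 CpGs at bases 270 to 288 of this sequence (positions 1101 to 1119; chromosome 10, 135381757 to 135381775, hg19) had no methylated read in any library. They share reads, and the deepest of them, at 1110, had 0 methylated of 58 reads over all 8 libraries, which allows a level of up to 5.17%. The adjacent CG at base 248 had 65.7% late, 30.8% at passages 11 to 17 and 90.3% early. The adjacent CpG on the other side, at 1131, had 77.3% late, 54.1% at passages 11 to 17 and 73.1% early, and the 10 CpGs from 1131 to 1341 had 93.8% late and 87.8% ± 6.22 early (SD, n = 3). Limits and intervals of this kind cover read counting only, and the files list no molecular identifiers.

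TEX14 encodes a protein that keeps the bridges between dividing germ cells open. Its window had 37.7% at passage 27 and 38.7% at passage 28, against 34.9% ± 1.84 early (SD, n = 3), and 40.7%, 45.7% and 22.6% at passages 11, 13 and 17. The fitted change was 1.29 points (adjusted p = 0.862, limma-moderated fit), while 48% of windows starting between 20 and 40% lost methylation. This intermediate level joined an unmethylated stretch to a more methylated one. The 15 CpGs from -766 to -467 (chromosome 17, 56769883 to 56770182, hg19) had no methylated read late or early. The deepest CpG had 41 reads late, which allows up to 7.32%, and 78 early, which allows up to 3.85%. Methylated reads were listed there at passage 11 alone, 3 at the CpG at -766. The 12 CpGs from 464 to 1041, inside the gene, had 73.8% late and 77.9% ± 4.85 early (SD, n = 3), and single CpGs among them ranged from 31.8% at 908 to 95.8% at 464 late and from 26.7% at 520 to 100% at 1041 early. The low value of passage 17 went with the mix of reads, since 191 of its 265 reads fell on the unmethylated stretch, against 315 of 543 at passage 6. Of the 2 CpGs with 10 or more reads throughout, that at -566 was at 0% in each library and that at 665 had 82.1% late and 88.8% early.

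SPO11 encodes the enzyme that makes the DNA breaks of meiotic recombination. It had 9 CpGs and 9 to 46 reads per library, and since 3 libraries had fewer than 20 it was not tested. The window had 13.0% at passage 27 and 5.88% at passage 28, against 21.7, 20.8 and 35.7% in passages 6, 7 and 8. Passages 11, 13 and 17 had 16.7, 9.09 and 44.4%, so passage 13 lay below passage 27. The intervals were wide, at 1.63 to 19.1% for passage 28, 12.3 to 35.6% for passage 6 and 16.3 to 61.2% for passage 8. They overlap, but overlap is not a test of a difference. With a minimum of 5 reads per library the fitted change was -13 points (adjusted p = 0.258, limma-moderated fit). The 7 CpGs from -3 to 291 had no methylated read late, where the deepest CpG had 13 reads, which allows up to 23.1%. Summed over these CpGs, which share reads, 6 of 62 were methylated early. The 2 CpGs at -1793 and -1776 had 8 of 12 methylated late and 14 of 22 early, summed in the same way.

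**Figure D3:**
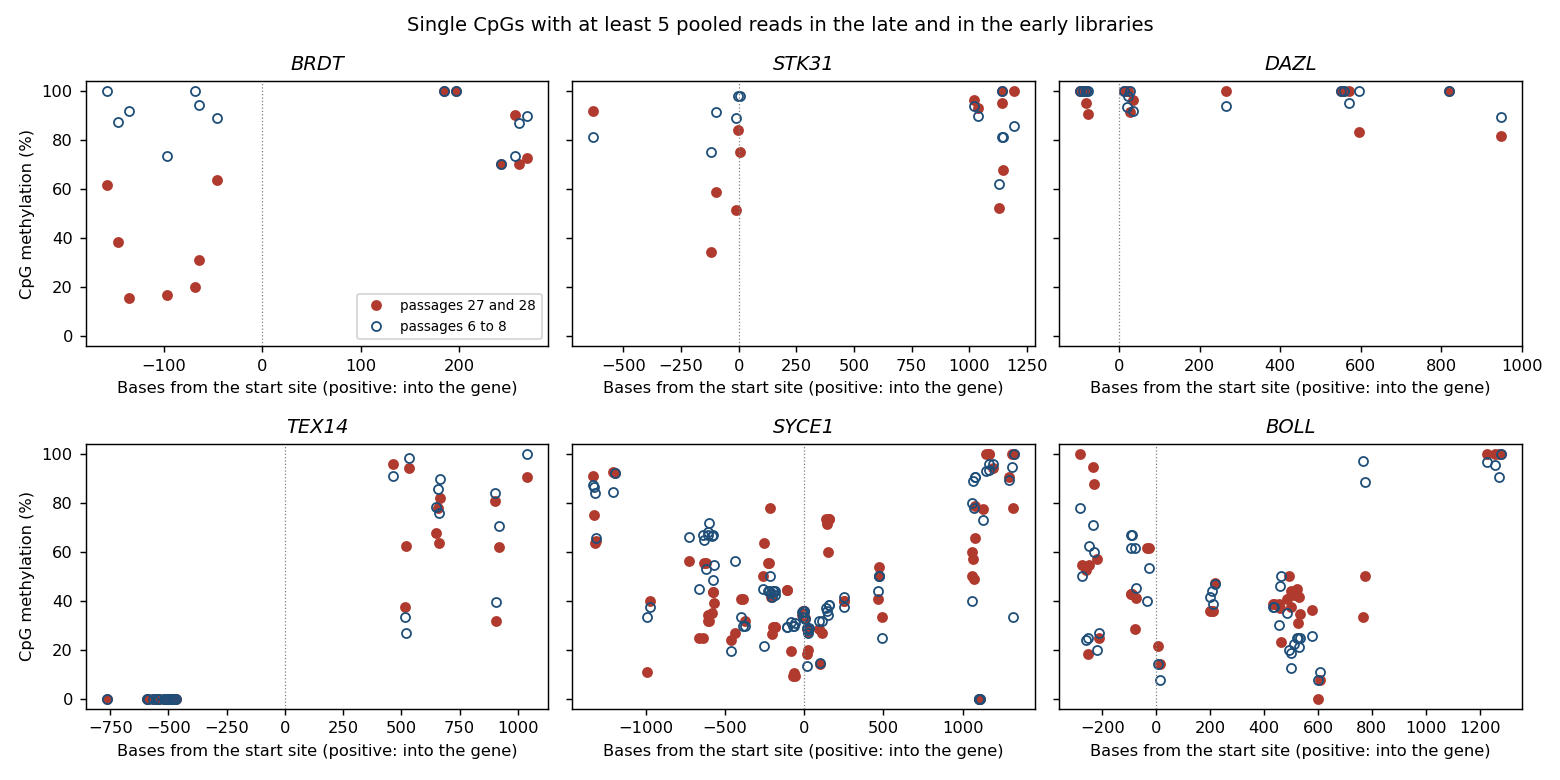
Methylation (%) of single CpGs against their distance in bases from the start site for 6 of the promoters; filled points pool passages 27 and 28 and open points pool passages 6 to 8. The lower late values of BRDT and STK31 sit at or before the start site, and the TEX14 CpGs shown are at 0% before the start and between 26.7 and 100% inside the gene.

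In order of late level the promoters ran DAZL (97.0%), SYCP1 (92.9%), HORMAD1 (89.1%), SYCP3 (76.0%), STK31 (75.8%), BRDT (53.1%), SYCE1 (46.3%), BOLL (43.9%), TEX14 (38.2%) and SPO11 (9.46%). SYCP1 and HORMAD1 overlapped in their late libraries, as did SYCP3 and STK31 and also BRDT, SYCE1 and BOLL, so the order within each of these sets is not resolved. Early, the order began with DAZL (96.2%), SYCP1 (95.7%) and HORMAD1 (92.1%), followed by STK31 (88.2%), BRDT (86.3%) and SYCP3 (82.6%). Over the 265 CpGs with at least 5 pooled reads both late and early, 86 were at 80% or more late and 108 were early, and 41 were at 20% or less late and 35 were early. Late levels lay 20 points or more below early ones at 41 CpGs, and as far above them at 21. The CpGs with lower late levels were 7 of 13 in BRDT, 4 of 13 in STK31, 15 of 85 in SYCE1, 5 of 29 in SYCP3, 6 of 45 in BOLL and 0 of 17 in DAZL. Those with higher late levels were 9 of 45 in BOLL and 8 of 85 in SYCE1. The matching shares over all CpGs of the series were not computed, so nothing particular to these promoters is drawn from the counts. With as few as 5 pooled reads, a difference of 20 points can arise from read counting.

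Set beside windows of their own starting level, the 6 promoters starting at 80% or more held both losses, where 21.2% of such windows lost methylation. Of these 6, BRDT lay far below the middle of the windows (median difference -6.55 points, interquartile range -12.6 to -2.2), STK31 at the lower quartile, SYCP3 at the median, and SYCP1, HORMAD1 and DAZL above it. None of the 3 tested promoters starting between 20 and 60% (BOLL, SYCE1 and TEX14) was called. Of windows starting at 20 to 40% and at 40 to 60%, 48% and 55.3% lost methylation. SPO11, which started at 26.1% and had a difference of -16.6 points, was not tested. Of the 3 tested, 0 had an unadjusted p under 0.05 in the limma-moderated fit, beside 50920 of all 133872 windows. Limma on logit levels called none of the 3. Over the windows of these classes the median difference was -12.1 points for a start of 20 to 40% and -18.7 points for 40 to 60%. The difference of late minus early was lower than that of BOLL in 92.6% of windows of its class, lower than that of SYCE1 in 86.7% and lower than that of TEX14 in 95%. These are descriptions with no test, and the sign of the 3 differences depended on the CpGs used. For TEX14 the window mean joins a stretch with no methylation to lose and a methylated one. Its window had 3.29 points, while the methylated stretch had -4.04. BOLL had 0.923 points, with 9.56 at CpGs of 5 or more reads throughout and -7.64 at its 1 CpG of 10 or more. SYCE1 had -2.84 points, with 3.43 in windows of 500 bases to either side and -17.7 at CpGs of 10 or more reads.

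**Figure D4:**
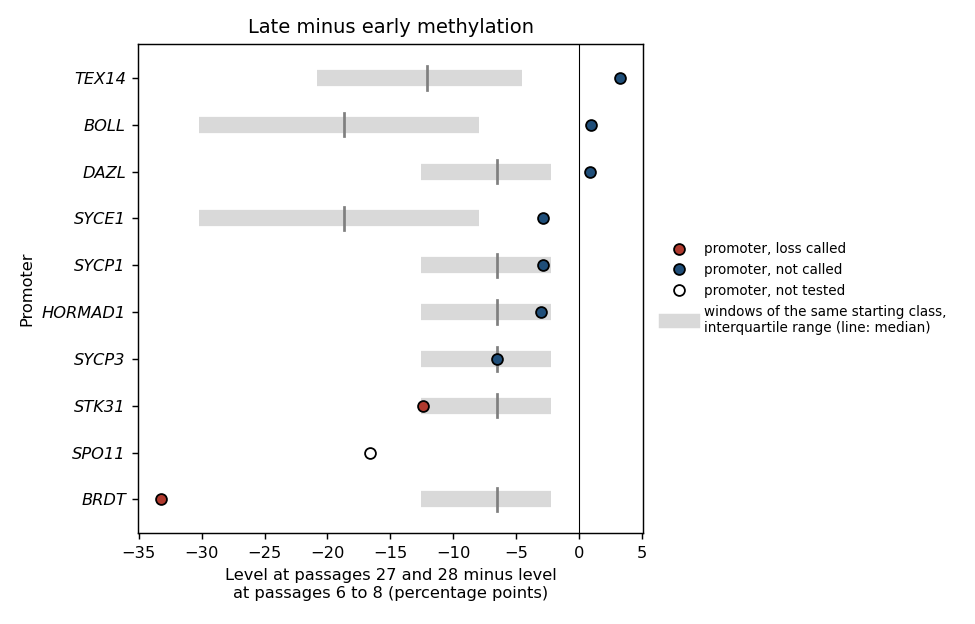
Difference in level (percentage points, passages 27 and 28 minus passages 6 to 8) of each promoter, with the interquartile range and median of all other tested windows of the same starting class as grey bars and lines. BRDT at -33.2 lies below the bar of its class, and TEX14, BOLL, SYCE1 and DAZL lie above theirs.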

How the data were processed

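RRBS was deposited as 1 file per library with 1 line per CpG. Positions are on hg19, per the submitters' processing notes. The authors deposited methylated and total read counts in the fourth column and a score in the fifth, which follows the methylated share and served only as a check of each line. The sources used here name no aligner, methylation caller, coverage filter or duplicate removal, and duplicates would make intervals too narrow. Median coverage per CpG was 6 to 13 reads.

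Reads were summed over the CpGs of each promoter and of all other autosomal windows of 4000 bases. A window was tested with at least 20 reads in every library and at least 10 methylated and 10 unmethylated reads in all. Fits used R 4.3.3 and limma 3.58.1 (squeezeVar, dispersion not under 1, two-sided F test, Benjamini-Hochberg over 133872 windows) and were tested on simulated data. With 1 library per passage, p-values weigh a trend only against the scatter of libraries around it, moderated over all windows, and that scatter may be technical. Intervals are 95% Wilson intervals; reads are summed over CpGs, and since 1 read can cover several CpGs, intervals of windows and stretches are too narrow. Limits for 0 methylated reads use 3 reads of the deepest single CpG. Sequences are RefSeq's on GRCh38.p14. Strands come from that table, and for HORMAD1 and TEX14 from general knowledge. All 10 promoters are named; single CpGs by rule are the nearest, highest and lowest among those with at least 10 reads in every library, and the stretches, sequence CpGs and CpGs with 5 pooled reads were chosen after values were seen. Members and lists were chosen with earlier results of these data known. Other germ line genes were not analysed here, since the tables at hand hold no hg19 start sites. Alternatives covered CpG sets, window sizes, read minimums, tests, passage scale and omitted libraries.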

Additional observations from a re-analysis of the deposited data

How the results depend on the processing

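Losses were called at 2 of 9 tested promoters. The count was 1 with CpGs of 5 or more reads throughout (STK31, of 6 promoters tested), 1 with CpGs of 10 or more reads (SYCE1, of 2 tested), 1 with limma on logit levels, 1 at a minimum change of 20 points, 1 with 1 CpG per 50 bases (chosen after seeing the data) and 1 to 2 on omission of single libraries, lowest without passage 28. Over passages 6 to 17 it was 0. There, 2 promoters had an unadjusted p under 0.05 in the limma-moderated fit, beside 24155 of all 133640 windows. The fitted change of BRDT turned to 1.63 points over these passages, and the cause was not tested. BRDT was otherwise called in each alternative in which it was tested. STK31 lost its call with limma on logit levels (adjusted p = 0.067), with 1 CpG per 50 bases (adjusted p = 0.0593, limma-moderated fit), at 20 points, over passages 6 to 17 and without passage 28. HORMAD1 was called in addition with windows of 1000 bases to either side, where 3 of 9 promoters and 27.6% of all windows lost methylation. SYCE1 was called in addition at 10 reads. In all, 195 of 203 fitted changes stayed on their side of the threshold. Late minus early differences moved beyond the early SD in 20 of 39 alternatives of CpG set, weighting or window size, and 5 of these values, in 4 promoters, had the opposite sign.

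All windows losing methylation numbered 11041 at 10 reads (42.6% of tested), 23117 at a window minimum of 50 reads and 8710 over passages 6 to 17 (6.52% of tested). Gains numbered 55 at 10 reads, 160 in windows of 500 bases to either side, 50 and 163 at window minimums of 50 and 5 reads, 57 without the minimum of reads of each state, 144 without a minimum change and 35 at 20 points. No paired analysis was possible because the series holds no replicate of any passage. Few CpGs of the promoters, 12 of 288, had 10 or more reads throughout, which limits statements on single CpGs.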
